A study of Homo sapiens with 4 samples.

Results

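Mitochondria carry their own small circular genome, and 13 of its genes encode subunits of the respiratory chain. These 13 genes and 28 nuclear genes that copy, transcribe, cut, stabilise and degrade mitochondrial RNA are described here in HCT116 cells. The 41 genes were taken from a list by symbol and matched by Ensembl identifier, and each of them had a row among the 20263 genes of the count table. HCT116 is an established human epithelial line from a colorectal carcinoma. The groups were cells given 7A, a compound derived from neratinib, for 24 h (2 libraries), and cells given DMSO, the solvent, for 24 h (2 libraries). All libraries came from the same line in the same medium, and no source used here states how much 7A was given. Messenger RNA was sequenced, and total counts were 49924044 and 61605005 in the 7A libraries, against 31120459 and 29769568 in the DMSO libraries.

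Of 8 epithelial markers, EPCAM, CDH1, KRT8, KRT18, KRT19, CLDN4 and CDX2 had counts in every library, and LGALS4 was at 0 in both 7A libraries, with 9 and 2 counts with DMSO. The level of CLDN4, a tight junction gene, set the DMSO libraries far apart, with 826 and 812 CPM (counts scaled to the library total) with 7A, against 449 and 24.0 CPM with DMSO. Of 8 markers of other cell types, CD3E and COL1A2 were at 0 in every library, and PTPRC, PECAM1, ALB and GFAP had between 0 and 12 counts in a library. The macrophage marker CD68 had 51.7 and 82.0 CPM with 7A, against 40.4 and 34.2 CPM with DMSO. COL1A1, a collagen gene of fibroblasts, had 31.2 and 34.6 CPM with 7A, against 63.2 and 60.1 CPM with DMSO. Their part in the results was not tested.

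Both strands of mitochondrial DNA are copied into long precursors by the RNA polymerase POLRMT with the factors TFAM and TFB2M. Most of the mRNAs lie between tRNAs, which are cut out at their front end by a complex of TRMT10C, HSD17B10 and PRORP and at their back end by ELAC2. Most of the freed mRNAs, though not all, receive a poly(A) tail from MTPAP and are held by the LRPPRC and SLIRP pair. Mitochondrial RNA is broken down by PNPT1 with the helicase SUPV3L1. MT-ND6 is the only one of the 13 genes read from the light-strand promoter, and the other 12 are read from the heavy-strand precursor. Cells in culture use this system to make part of complexes I, III, IV and V, and all other subunits are imported from the cytosol.

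The last 30 bases of the annotated transcripts are shown for the gene with the largest fall, the gene that did not pass the test, a gene between them and the light-strand gene. They show how the annotated sequences end. The letters are those of GENCODE 29 transcripts on GRCh38, 5′ to 3′ in the sense of each mRNA, and capitals mark the stop codon or the part of it that the DNA encodes.
MT-ND2, chrM:5482-5511, plus strand: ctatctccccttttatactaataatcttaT
MT-CO1, chrM:7416-7445, plus strand: ttcgaagaacccgtatacataaaatctAGA
MT-CYB, chrM:15858-15887, plus strand: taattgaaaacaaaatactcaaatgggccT
MT-ND6, chrM:14149-14178, minus strand: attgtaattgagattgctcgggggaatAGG
In 6 of the 13 genes (MT-ND1, MT-ND2, MT-ND3, MT-ND4, MT-CO3 and MT-CYB) the annotated end holds only T or TA of a stop codon, which the poly(A) tail completes. The light-strand sequence stands out in composition, with 35.6% G in MT-ND6, while G made up between 6.28% (MT-ATP8) and 16.2% (MT-CO1) of the annotated sequences of the 12 heavy-strand genes.

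Of the 13 mitochondrially encoded genes, 12 fell in 7A cells, and MT-CO1 did not pass the test. A gene rose or fell here when its adjusted p was under 0.05 in edgeR's quasi-likelihood test of 7A over DMSO across 14026 genes, of which 48.4% passed, 24.6% lower and 23.9% higher. All 41 members passed the filter on low counts. The 13 genes together took 3.04% and 4.07% of the 7A libraries, against 6.59% and 7.73% of the DMSO libraries. Their median log2 fold change was -1.38, against -0.03 over all genes tested. In RNA from whole cultures, less mitochondrial RNA per cell and fewer cells that hold it cannot be told apart, and neither can a change in the nuclear RNA that makes up the rest of a library. The 2 libraries of each group did not overlap for any of the 13 genes, while among all genes tested 40.2% were separate in the lower and 78.4% in either direction. Nothing in the labels says that the libraries are separate cultures, so the p-values measure only the spread between them.

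The complex I genes nearest the heavy-strand promoter had the steepest falls. MT-ND2 (ENSG00000198763, chromosome M, 4470 to 5511), a membrane subunit of complex I, had 303 and 329.9 CPM with 7A, against 1459 and 1822 CPM with DMSO. Here and below, CPM is scaled by the TMM method. Both 7A libraries lay far below both DMSO libraries, a log2 fold change of -2.37 ± 0.16 (standard error) or 5.18-fold lower (edgeR adjusted p 0.000471). Its neighbour MT-ND1 (ENSG00000198888, chromosome M, 3307 to 4262) had 278 and 304 CPM with 7A, against 968 and 1112 CPM with DMSO. That is -1.84 ± 0.14 on the log2 scale (edgeR adjusted p 0.000528).

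MT-CO1 (ENSG00000198804, chromosome M, 5904 to 7445), which lies directly downstream of them and encodes the catalytic core of complex IV, had 15609.8 and 22256 CPM with 7A. The DMSO libraries had 22491 and 25684 CPM. The second 7A library almost reached the lower DMSO library, and the log2 fold change of -0.35 ± 0.22 did not pass (edgeR adjusted p 0.215). MT-CO1 passed with library totals in place of TMM (-0.62, edgeR adjusted p 0.0423), where the median of all genes shifts to -0.29. Its value rested on single libraries: it was -0.0928 without 7A replicate 1 (edgeR adjusted p 0.726), -0.63 without 7A replicate 2 (0.0763), -0.43 without DMSO replicate 1 (0.252) and -0.24 without DMSO replicate 2 (0.524). The other complex IV genes fell less than most. MT-CO2, the copper-binding subunit that takes electrons from cytochrome c, had 3661 and 4975 CPM with 7A, against 6897 and 8212 CPM with DMSO (-0.81 ± 0.20, edgeR adjusted p 0.013). For MT-CO3, the third core subunit, the 7A libraries had 4639 and 6245 CPM and the DMSO libraries 8940.0 and 10681 CPM (-0.85 ± 0.20, edgeR adjusted p 0.011). In both genes the second 7A library was the higher of its group.

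Among the remaining complex I genes, all of which encode membrane subunits of its proton-pumping arm, the falls ranged from -0.76 to -1.62. MT-ND4 had 4262 and 5703 CPM with 7A, against 7377 and 9501 CPM with DMSO (-0.76 ± 0.21, edgeR adjusted p 0.0202). MT-ND4L, which shares an mRNA with MT-ND4, had 881 and 1212 CPM with 7A, against 1675 and 2194 CPM with DMSO (-0.89 ± 0.21, edgeR adjusted p 0.014). The MT-ND4 and MT-ND4L differences were thus close in size, though their errors do not measure the gap between the genes. MT-ND4L counts were 20.7% and 21.2% of MT-ND4 counts with 7A, against 22.7% and 23.1% with DMSO, and the groups did not overlap. MT-ND3 had 327 and 318 CPM with 7A, against 773 and 901 CPM with DMSO (-1.38 ± 0.13). For MT-ND5, the longest of the 13, the values were 1475 and 2227 CPM with 7A and 5623 and 5759.6 CPM with DMSO (-1.62 ± 0.21). In MT-ND5 the 7A libraries differed by 1.51 times, the widest gap between 7A libraries among the 13 genes, while the DMSO libraries lay within 1.02 times of each other.

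The ATP synthase subunits MT-ATP8 and MT-ATP6 are read from 1 mRNA, and their coding sequences overlap by 46 bases. The overlap is shown because reads within it fit both genes, with the start codon of MT-ATP6 and the stop codon of MT-ATP8 in capitals.
MT-ATP8 and MT-ATP6, chrM:8527-8572, plus strand: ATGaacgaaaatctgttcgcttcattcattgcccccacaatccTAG
The overlap makes up 22.2% of MT-ATP8 and 6.75% of MT-ATP6, and no source used here says how reads in it were shared. MT-ATP8 had 162 and 215 CPM with 7A, against 583 and 579 CPM with DMSO (-1.62 ± 0.16, edgeR adjusted p 0.000774). MT-ATP6, the subunit that forms the proton channel, had 438 and 523 CPM with 7A, against 945 and 1134 CPM with DMSO (-1.11 ± 0.15, edgeR adjusted p 0.00169). Although they share an mRNA, MT-ATP8 counts were 37.1% and 41.2% of MT-ATP6 counts with 7A, against 61.7% and 51.0% with DMSO, and the groups did not overlap. MT-CYB, the only mitochondrially encoded subunit of complex III, had 599 and 736 CPM with 7A, against 1574 and 2069 CPM with DMSO (-1.45 ± 0.18, edgeR adjusted p 0.00144).

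**Figure D1:**
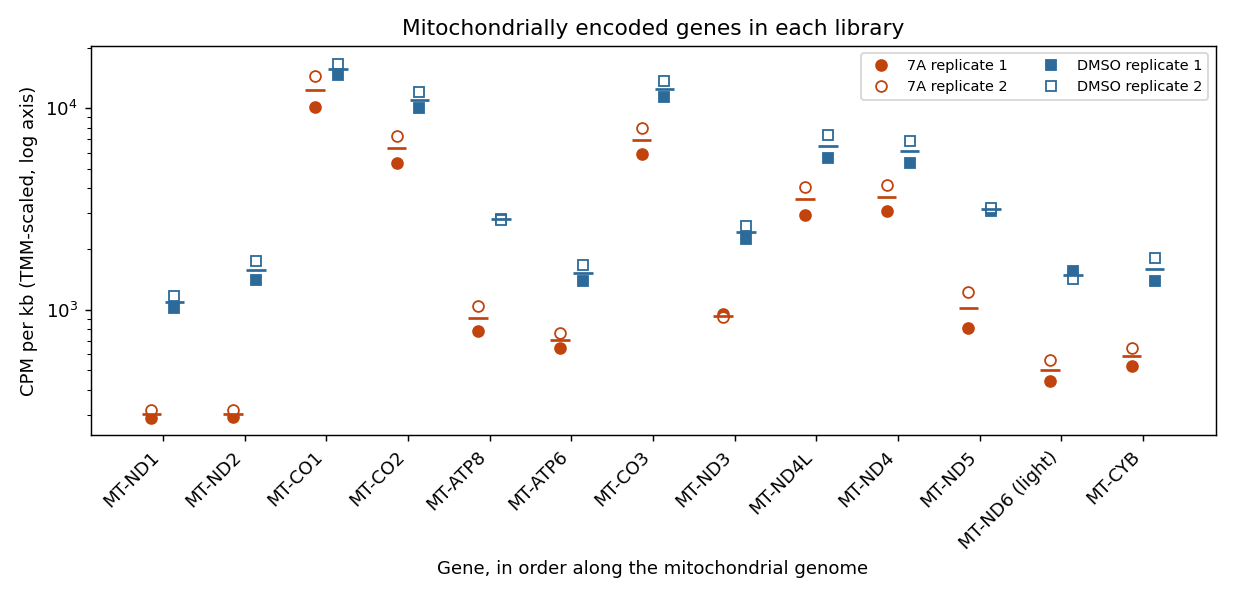
CPM per kilobase (log axis) of the 13 mitochondrially encoded genes in order along the genome, in 2 7A libraries (circles) and 2 DMSO libraries (squares; filled for replicate 1, open for replicate 2), with horizontal lines at group means. The 7A libraries lie below the DMSO libraries for each gene, narrowly for MT-CO1 and widely for MT-ND1 and MT-ND2.

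Divided by gene length, the levels spread further apart in 7A cells. The highest mean, that of MT-CO1, was 12278 CPM per kb with 7A and 15621 CPM per kb with DMSO. The lowest with 7A were MT-ND2 at 303.9 and MT-ND1 at 304.1 CPM per kb, whose order differed between the 7A libraries, and the lowest with DMSO was MT-ND1, at 1087 CPM per kb. The highest was thus 40.4 times the lowest in 7A cells, against 14.4 times in DMSO cells. MT-ND2 thus shared the lowest place with 7A and ranked 10th of the 13 with DMSO, while the complex IV genes held the first 3 places in both groups. Across the 13 genes, those with a higher DMSO level per kb tended to have the smaller falls (Spearman's rho 0.75 over 13 genes, a description, since the DMSO libraries enter both measures). Genes with an incomplete stop codon ranged from -2.37 to -0.76 in log2 fold change and those with a complete one from -1.62 to -0.35, so the ranges overlapped.

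The make-up of the mitochondrial mRNA count, which no scaling between libraries can alter, differed between the groups. MT-CO1 made up 47.5% and 49.1% of it with 7A, against 37.4% and 36.5% with DMSO. MT-ND2 made up 0.923% and 0.728% with 7A, against 2.43% and 2.59% with DMSO. The MT-ND5 share was 4.49% and 4.91% with 7A, against 9.35% and 8.18% with DMSO. MT-CO2, MT-CO3, MT-ND4 and MT-ND4L kept mean shares of between 0.907 and 0.991 times the DMSO share, and in MT-ND4 the groups overlapped. Summed by complex, TMM-scaled levels with 7A over those with DMSO came to 0.445 for the 7 complex I genes, 0.366 for MT-CYB, 0.692 for the 3 complex IV genes and 0.413 for the 2 complex V genes.

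**Figure D2:**
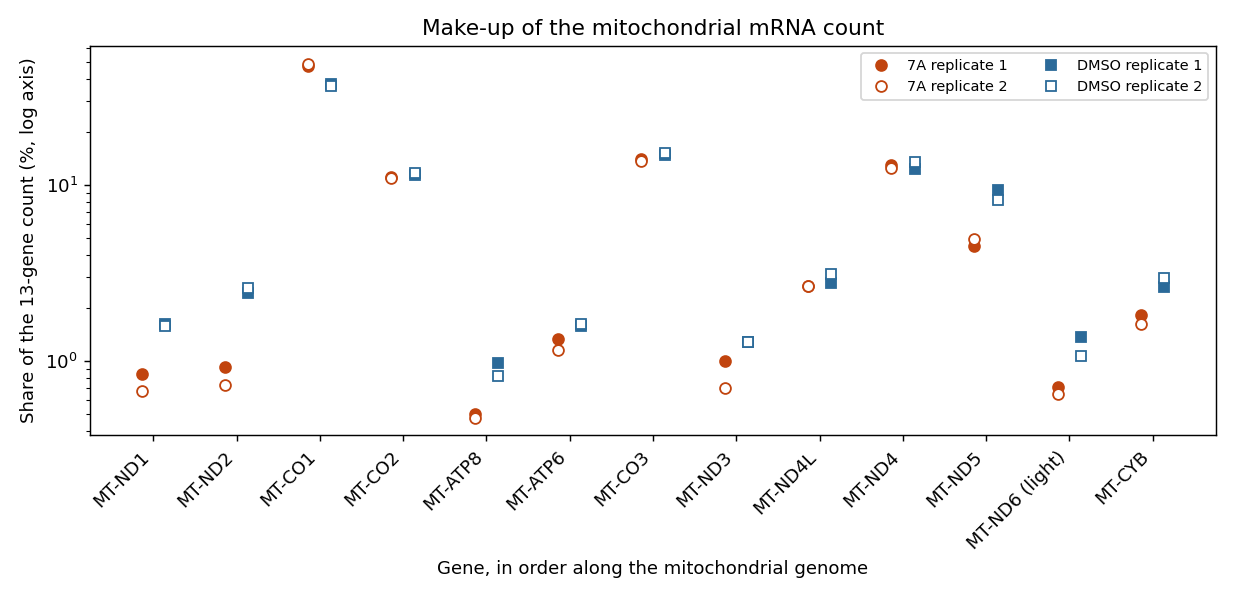
Share of the count on the 13 mitochondrially encoded genes (percent, log axis) taken by each gene, in 2 7A libraries (circles) and 2 DMSO libraries (squares; filled for replicate 1, open for replicate 2). MT-CO1 had 47.5% and 49.1% with 7A, above its 37.4% and 36.5% with DMSO, and MT-ND1, MT-ND2, MT-ND5 and MT-ATP8 lay lower with 7A.

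MT-ND6 (ENSG00000198695, chromosome M, 14149 to 14673, minus strand), the light-strand gene of complex I, had 233 and 294 CPM with 7A, against 819 and 748 CPM with DMSO. It fell by 1.57 on the log2 scale (standard error 0.15, edgeR adjusted p 0.000729). Its count was 0.714% and 0.652% of the 12 heavy-strand genes together with 7A, against 1.38% and 1.07% with DMSO, so both 7A libraries lay below both DMSO libraries. That sum is dominated by MT-CO1. Set against MT-ND5, the heavy-strand gene next to it, MT-ND6 counts were 15.8% and 13.2% with 7A and 14.6% and 12.99% with DMSO, and the groups overlapped. Against MT-CYB, its neighbour on the other side, they were 38.9% and 39.9% with 7A and 52.1% and 36.2% with DMSO, again overlapping. The mean log2 ratio with 7A minus that with DMSO was -0.84 for the heavy-strand sum, 0.07 for MT-ND5 and -0.14 for MT-CYB. An exact permutation test of 2 against 2 libraries cannot give a two-sided p below 0.333, and no other test of these ratios was run. Whether the libraries kept strand is stated by no source used here. Without strand, reads of MT-ND6 and of the heavy-strand precursor opposite it cannot be told apart. Since not all of these mRNAs receive a poly(A) tail, the ratios may also depend on how mRNA was selected, which was not tested.

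**Figure D3:**
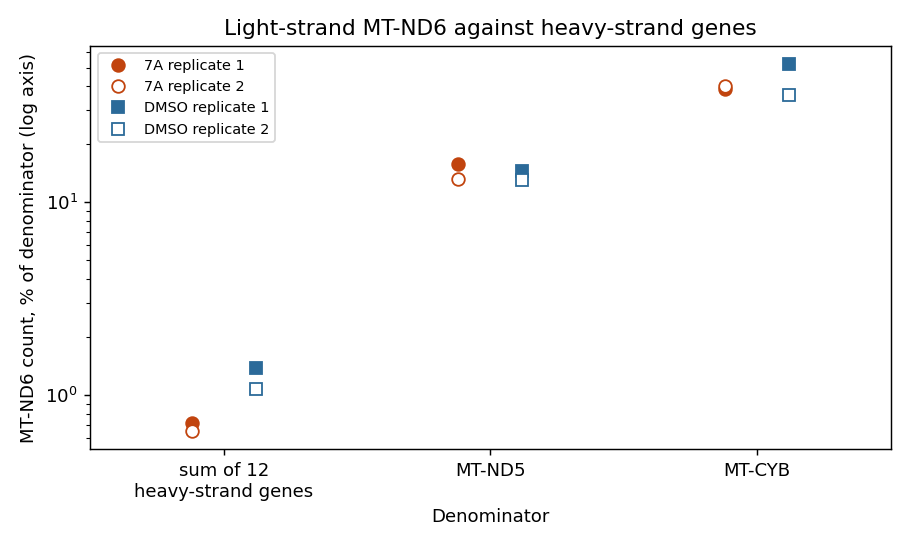
MT-ND6 count as a percentage (log axis) of the sum of 12 heavy-strand genes, of MT-ND5 and of MT-CYB, in 2 7A libraries (circles) and 2 DMSO libraries (squares; filled for replicate 1, open for replicate 2). The 7A libraries lie below the DMSO libraries for the sum (0.714% and 0.652% against 1.38% and 1.07%), and the groups overlap for both neighbours.

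Leaving out 1 library ended the calls of the genes with the smaller falls. Without 7A replicate 1 the edgeR adjusted p was 0.121 for MT-ND4, 0.0852 for MT-ND4L, 0.0738 for MT-CO2 and 0.0656 for MT-CO3, and without DMSO replicate 2 it was 0.11, 0.0579, 0.0687 and 0.0584 for the same genes. In both cases 8 of the 13 genes were called lower, and the falls of MT-ND1, MT-ND2, MT-ND3, MT-ND5, MT-ND6, MT-ATP6, MT-ATP8 and MT-CYB passed under each of 15 alternatives. Nuclear DNA holds many copies of mitochondrial sequence. GENCODE 29 names between 2 (MT-ATP8) and 45 (MT-CO1) such pseudogenes per gene outside the mitochondrial genome, and a counter may drop or share reads that fit both places.

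The 28 nuclear genes were mixed, with 11 higher and 5 lower in 7A cells and 12 that did not pass, against 23.9% higher and 24.6% lower among all genes tested. Their median log2 fold change was 0.29. The groups did not overlap for 16 genes in the higher and 6 in the lower direction, against 38.2% and 40.2% of all genes tested. POLRMT, SLIRP and ELAC2 were among those that rose, and FASTKD5 and TRMT10C fell furthest. With library totals in place of TMM, 6 were higher and 6 lower. The median of all genes then lay at -0.29 (a shift of -0.27), that of the 13 mitochondrial genes at -1.64 and that of the 28 nuclear genes at 0.03. Such a change of scaling moves all genes by nearly the same amount, so distances from the median of all genes had to stay. They were -1.35 for the 13 genes and 0.32 for the 28 nuclear genes with either scaling. Among all called genes 49.3% were higher with TMM, 28.3% with library totals and 60.7% after a correction for GC content and transcript length. Transcript length moved with the response: with nuclear genes in 5 bins by length, the median log2 fold change was 0.33 in the shortest (312 to 2766 bases) and -0.43 in the longest (from 8115 bases). After the correction 15 of the 28 were higher and 3 lower, with a median of 0.41. The annotated sequences of the 13 mitochondrially encoded genes are 207 to 1812 bases long, and 12 of these genes were lower after it.

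**Figure D4:**
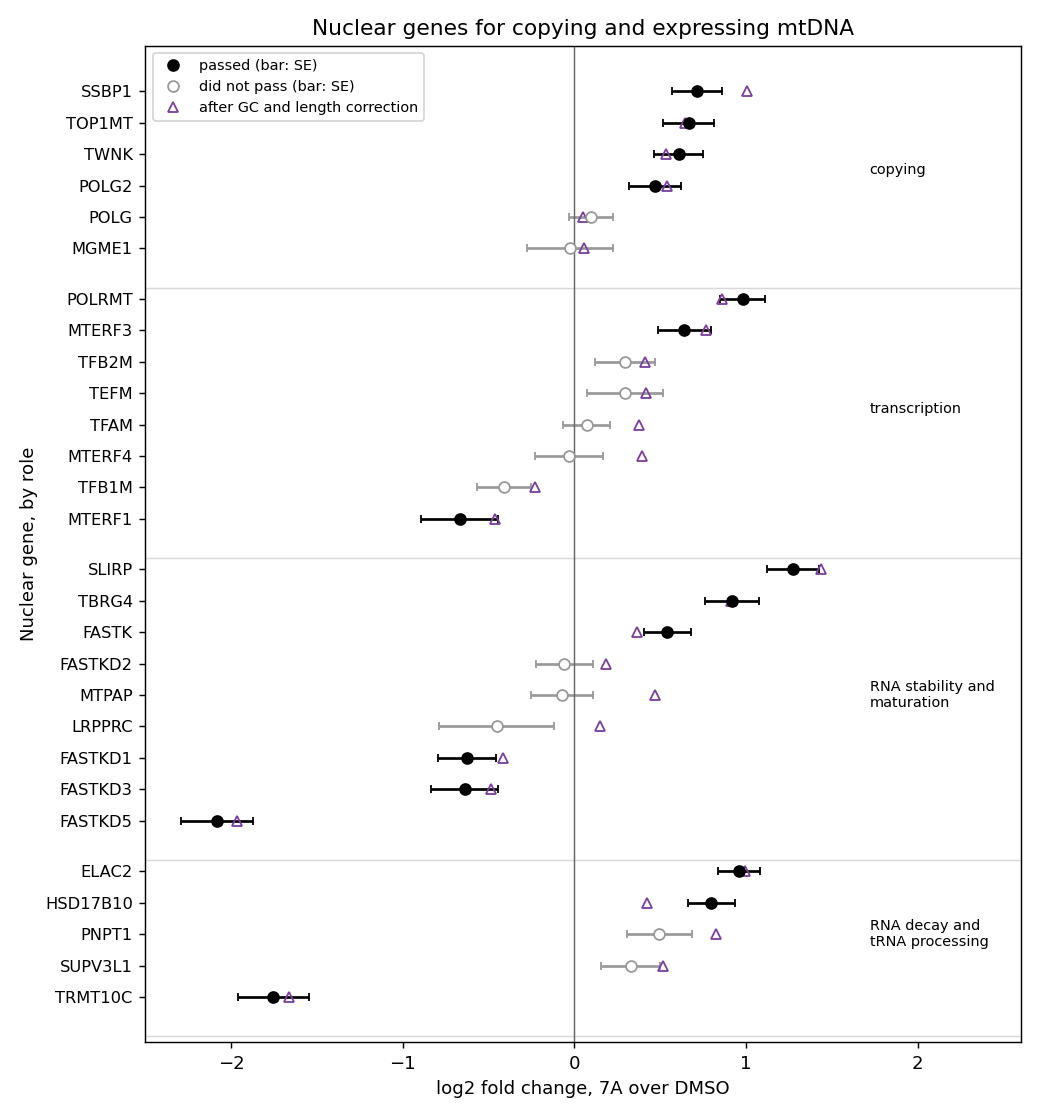
Log2 fold change of 7A over DMSO for the 28 nuclear genes, grouped by role and sorted within each role. Circles are edgeR values with standard errors (filled black where the gene passed, open grey where it did not), and triangles are values after a correction for GC content and transcript length. SLIRP is highest at 1.27, and FASTKD5 (-2.08) and TRMT10C (-1.75) are lowest.

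Of 6 genes for copying mitochondrial DNA, 4 rose (median 0.54, with 1 of 6 higher under library totals), and the polymerase itself did not pass. Thus 66.7% of this role passed, against 48.4% of all genes tested. POLG, the catalytic subunit of the mitochondrial DNA polymerase, had 74.6 and 72.3 CPM with 7A, against 69.2 and 68.2 CPM with DMSO (0.10 ± 0.13, edgeR adjusted p 0.547). SSBP1, which coats single-stranded mitochondrial DNA, had 78.5 and 66.0 CPM with 7A, against 42.5 and 45.6 CPM with DMSO (0.71 ± 0.15, edgeR adjusted p 0.00717). TOP1MT, a mitochondrial topoisomerase, had 76.5 and 92.4 CPM with 7A, against 52.2 and 54.4 CPM with DMSO (0.67 ± 0.15, edgeR adjusted p 0.00906). TWNK, which encodes the Twinkle helicase, had 33.7 and 34.97 CPM with 7A, against 22.7 and 22.3 CPM with DMSO (0.61 ± 0.14, edgeR adjusted p 0.0114). In these 3 the 7A libraries lay clear of the DMSO libraries. POLG2, the accessory subunit of the polymerase, rose by 0.47 ± 0.15, and MGME1, an exonuclease that trims DNA ends, did not pass (-0.03 ± 0.25). Leaving out DMSO replicate 1 ended the calls of SSBP1, TWNK and TOP1MT (edgeR adjusted p 0.0544, 0.0619, 0.0597), and leaving out DMSO replicate 2 those of TWNK and TOP1MT (0.0808, 0.05005). The POLG2 call was lost without 7A replicate 1, 7A replicate 2, DMSO replicate 1 or DMSO replicate 2 (edgeR adjusted p 0.0565, 0.102, 0.085, 0.223).

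Of 8 transcription genes, 2 rose and 1 fell (median 0.18, or -0.08 with library totals), so 37.5% passed, below the 48.4% of all genes tested. POLRMT (ENSG00000099821), the RNA polymerase, had 312 and 323 CPM with 7A, against 175 and 147 CPM with DMSO. The groups lay well apart, at 0.98 ± 0.13 on the log2 scale or 1.98-fold higher (edgeR adjusted p 0.00155). TFAM, which bends the promoter DNA and packs the genome, had 50.4 and 46.2 CPM with 7A, against 46.5 and 45.5 CPM with DMSO. The TFAM groups overlapped (0.07 ± 0.14, edgeR adjusted p 0.687). After the correction for GC content and length the TFAM value was 0.38 (edgeR adjusted p 0.0395), and with library totals it was -0.19. MTERF3, which binds mitochondrial DNA and limits its transcription in mice, had 21.9 and 22.1 CPM with 7A, against 13.3 and 14.9 CPM with DMSO (0.64 ± 0.15, edgeR adjusted p 0.013). MTERF1, a termination factor that binds within the gene for a leucine tRNA, had 2.75 and 3.49 CPM with 7A, against 5.10 and 4.84 CPM with DMSO. Its fall was the weakest call of the set (-0.67 ± 0.22, edgeR adjusted p 0.0407). After the GC and length correction MTERF1 had edgeR adjusted p 0.17, and DESeq2 gave it 0.105. It was also lost without 7A replicate 1, 7A replicate 2, DMSO replicate 1 or DMSO replicate 2 (edgeR adjusted p 0.145, 0.0503, 0.153, 0.119). MTERF3 was lost without 7A replicate 2, DMSO replicate 1 or DMSO replicate 2 (0.0561, 0.0913, 0.0528). The start factor TFB2M (0.30 ± 0.18), the elongation factor TEFM (0.29 ± 0.22), the rRNA methyltransferase TFB1M (-0.41 ± 0.16) and MTERF4, which acts on the large mitochondrial ribosomal subunit (-0.03 ± 0.20), did not pass. TFB1M passed with library totals (-0.68, edgeR adjusted p 0.0143).

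Of 9 genes for RNA stability and maturation, 3 rose and 3 fell (median -0.07, or 0.19 after the GC and length correction). Thus 66.7% of them passed, against 48.4% of all genes tested. SLIRP (ENSG00000119705), the small partner of LRPPRC, had 47.4 and 45.4 CPM with 7A, against 20.6 and 17.8 CPM with DMSO. It rose by 1.27 ± 0.15, 2.42-fold (edgeR adjusted p 0.00117), with the groups far apart. LRPPRC had 151 and 95.1 CPM with 7A, against 131 and 206 CPM with DMSO. Its libraries scattered within each group and overlapped between them (-0.45 ± 0.34, edgeR adjusted p 0.323). SLIRP counts were thus 31.3% and 47.7% of LRPPRC counts with 7A, against 15.7% and 8.63% with DMSO. TBRG4, also called FASTKD4, which stabilises several mitochondrial mRNAs, had 122 and 126 CPM with 7A, against 74.1 and 57.1 CPM with DMSO (0.92 ± 0.16, edgeR adjusted p 0.00349). FASTK, the founding member of that family, rose by 0.54 ± 0.14.

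FASTKD5 (ENSG00000215251), which is needed to cut precursors such as that of MT-CO1 where no tRNA marks the junction, had 3.76 and 3.35 CPM with 7A, against 13.2 and 16.9 CPM with DMSO. This was the largest fall among the 28 nuclear genes, -2.08 ± 0.21 on the log2 scale or 4.23-fold lower (edgeR adjusted p 0.000846). Its relatives FASTKD1 and FASTKD3 also fell, by 0.62 and 0.64 on the log2 scale (standard errors 0.17 and 0.20). FASTKD2, which binds mitochondrial rRNA (-0.06 ± 0.17), and the poly(A) polymerase MTPAP (-0.07 ± 0.18) did not pass. After the GC and length correction MTPAP came to 0.47 (edgeR adjusted p 0.0214) and FASTKD1 had edgeR adjusted p 0.0528. The 6 measured members of the FASTK family therefore went both ways, 2 higher, 3 lower and FASTKD2 not passing. FASTK did not pass when DMSO replicate 2 was left out (edgeR adjusted p 0.131), nor FASTKD1 without 7A replicate 2, DMSO replicate 1 or DMSO replicate 2 (0.0776, 0.112, 0.0655). FASTKD3 was lost without 7A replicate 1, 7A replicate 2, DMSO replicate 1 or DMSO replicate 2 (edgeR adjusted p 0.0666, 0.102, 0.0934, 0.148).

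Of 5 genes for RNA decay and tRNA processing, 2 rose and 1 fell (median 0.50), so 60.0% passed, against 48.4% of all genes tested. A rise and the fall met within 1 complex. TRMT10C (ENSG00000174173), the methyltransferase subunit of mitochondrial RNase P, had 7.76 and 5.74 CPM with 7A, against 21.3 and 24.2 CPM with DMSO. It fell by 1.75 on the log2 scale (standard error 0.21, 3.37-fold lower, edgeR adjusted p 0.0011). HSD17B10, the dehydrogenase that binds TRMT10C in the same complex, had 71.0 and 76.0 CPM with 7A, against 40.8 and 43.7 CPM with DMSO (0.80 ± 0.13, edgeR adjusted p 0.00331). The third subunit, the nuclease PRORP, which was added after its values were seen, had 17.9 and 24.7 CPM with 7A, against 14.5 and 15.9 CPM with DMSO. PRORP did not pass (0.49 ± 0.19, edgeR adjusted p 0.0731), though its groups did not overlap, and it came to 0.96 after the GC and length correction (edgeR adjusted p 0.0197). The HSD17B10 value was 0.42 after the GC and length correction. ELAC2, which cuts the back end of tRNAs, had 125 and 128 CPM with 7A, against 62.9 and 67.3 CPM with DMSO (0.96 ± 0.12, edgeR adjusted p 0.00144). So the groups stood apart for TRMT10C, which was lower, and for HSD17B10 and ELAC2, which were higher. The decay enzymes PNPT1 (0.50 ± 0.19) and SUPV3L1 (0.33 ± 0.17) did not pass, with edgeR adjusted p 0.0654 and 0.147, and PNPT1 passed with no filter on low counts (0.0481). After the GC and length correction they came to 0.82 and 0.52 (edgeR adjusted p 0.0049 and 0.0207). The calls of POLRMT, SLIRP, TBRG4, ELAC2, HSD17B10, FASTKD5 and TRMT10C held under each of 15 alternatives.

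Promoters of nuclear mitochondrial genes are known for binding the ETS factor GABP. RefSeq promoter sequences on GRCh38.p14 (250 bases before to 50 after the gene start) were at hand for 24 of the 28 nuclear genes. The ETS letters CCGGAAG, searched on both strands, occurred in 11 of these 24 promoters (45.8%), against 10.7% of 27305 promoters. The sets are unlike: the 24 genes all passed the filter on low counts, and the 27305 promoters were not limited to such genes. Promoters with the ETS letters belonged to 6 genes that rose, 2 that fell and 3 that did not pass, and those without them to 2, 2 and 9 genes. These counts leave out MTERF3, TWNK and TOP1MT, which rose, and FASTKD5, which fell, as no promoter sequence was at hand for them. A rise, a second rise and a fall are shown, with these letters in capitals.
POLRMT, chr19:633488-633787, minus strand: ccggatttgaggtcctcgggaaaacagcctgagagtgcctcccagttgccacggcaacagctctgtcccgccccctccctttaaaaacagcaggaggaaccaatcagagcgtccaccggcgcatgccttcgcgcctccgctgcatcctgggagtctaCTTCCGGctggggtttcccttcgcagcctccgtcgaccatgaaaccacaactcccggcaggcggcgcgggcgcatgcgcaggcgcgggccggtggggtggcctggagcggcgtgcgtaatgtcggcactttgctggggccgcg
ELAC2, chr17:13017978-13018277, minus strand: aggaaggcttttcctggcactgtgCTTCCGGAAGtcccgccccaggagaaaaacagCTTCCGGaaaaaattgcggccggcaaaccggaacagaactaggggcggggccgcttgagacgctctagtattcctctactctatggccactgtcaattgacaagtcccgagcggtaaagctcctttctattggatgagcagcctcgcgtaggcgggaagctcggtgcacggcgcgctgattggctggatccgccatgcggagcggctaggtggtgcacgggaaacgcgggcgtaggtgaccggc
TRMT10C, chr3:101561618-101561917, plus strand: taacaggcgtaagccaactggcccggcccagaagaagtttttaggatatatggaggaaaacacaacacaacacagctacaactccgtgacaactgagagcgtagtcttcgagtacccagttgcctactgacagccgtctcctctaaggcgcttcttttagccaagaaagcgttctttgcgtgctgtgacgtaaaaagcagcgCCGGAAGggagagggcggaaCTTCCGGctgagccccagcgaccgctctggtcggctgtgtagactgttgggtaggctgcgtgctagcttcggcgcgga
In ELAC2 a pair of ETS matches overlap each other within CTTCCGGAAG. TRMT10C, which fell, and POLRMT and ELAC2, which rose, thus held the same letters, and a match is not a measured binding site.

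Other genes of mitochondrial gene expression, 92 in 6 lists with 91 tested, gave 33 higher and 12 lower, against 23.9% higher and 24.6% lower among all 14026 genes tested. With library totals they gave 20 and 20, while 1951 of all genes were higher and 4934 lower. In either direction together 40.0% of the translation factors and 47.6% of the RNA modification genes passed, at or below the 48.4% of all genes. Of 21 genes for RNA modification and tRNA processing, 7 rose and 3 fell (median 0.35). The pseudouridine synthase gene PUS1 rose by 1.33 ± 0.17 and the rRNA methyltransferase gene NSUN4 by 1.10 ± 0.15. The tRNA methyltransferase genes NSUN3 and TRMT5 fell by 0.74 and 0.56 on the log2 scale. Of 11 RNA granule and decay genes, 4 rose and 3 fell (median 0.20, or -0.06 with library totals). Thus 63.6% of this list passed, above the 48.4% of all genes. The nuclease gene ENDOG and the helicase gene DHX30 rose by 0.86 ± 0.17 and 0.80 ± 0.12. The helicase gene DDX28 fell by 1.11 on the log2 scale and PTCD2, an RNA-binding gene, by 0.77. Of 15 translation factors, 4 rose and 2 fell (median -0.12, or 0.19 after the GC and length correction). TUFM, the mitochondrial elongation factor, rose by 1.25 ± 0.12, to 730 and 785 CPM with 7A, against 326 and 311 CPM with DMSO. GUF1, an elongation factor, rose by 1.01 ± 0.16, while the initiation factor gene MTIF3 and MTRES1 fell by 0.80 and 1.01 on the log2 scale.

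Of 21 genes for DNA maintenance and nucleotide supply, 10 rose and 2 fell (median 0.30), so 57.1% passed, against 48.4% of all genes tested. ATAD3A and ATAD3B, near-identical neighbours that encode inner membrane ATPases and may share reads, rose by 1.77 ± 0.14 and 1.19 ± 0.16. RRM2B, a ribonucleotide reductase subunit under p53, fell by 0.63 on the log2 scale and MTERF2 by 0.95. Of 11 regulators of mitochondrial gene expression tested, 2 rose and 1 fell (median -0.01, or 0.29 after the GC and length correction), so 27.3% passed. The coactivator genes PPRC1 and HCFC1 rose by 1.13 ± 0.15 and 0.71 ± 0.14, and GABPA, which encodes the DNA-binding subunit of GABP, fell by 0.63 on the log2 scale. PPARGC1A did not pass the filter on low counts. Of 12 markers of mitochondrial content, 6 rose and 1 fell (median 0.61), so 58.3% passed. The import genes TOMM40 and TOMM22 rose by 1.74 ± 0.14 and 1.14 ± 0.13, and IMMT, which shapes the inner membrane, fell by 1.24.

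Several of these calls were lost when 1 library was left out, where fewer of all genes passed as well. A lost call did not always go with a smaller difference. MTIF3 was at -0.81 without 7A replicate 1, against -0.80 with all libraries. Without 7A replicate 1 the call was lost for PTCD2, MTIF3 and IMMT (edgeR adjusted p 0.0762, 0.0728, 0.063). Without 7A replicate 2 it was lost for NSUN3, TRMT5, PTCD2, MTIF3, RRM2B, MTERF2, GABPA and IMMT (0.104, 0.0971, 0.0812, 0.0862, 0.0886, 0.117, 0.191, 0.121). Without DMSO replicate 1 the losses were NSUN3, TRMT5 and RRM2B (edgeR adjusted p 0.0877, 0.0797, 0.061). Without DMSO replicate 2 they were NSUN3, TRMT5, PTCD2, MTIF3, RRM2B, MTERF2, GABPA and HCFC1 (0.106, 0.148, 0.127, 0.108, 0.133, 0.13, 0.223, 0.0509). After the GC and length correction NSUN3, TRMT5 and PTCD2 did not pass (edgeR adjusted p 0.0626, 0.204, 0.837). The rises of PUS1, NSUN4, TUFM, GUF1, ATAD3A, ATAD3B, PPRC1, TOMM22, TOMM40, DHX30 and ENDOG passed under each of 15 alternatives.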

How the data were processed

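RNA of HCT116 cells after 24 h of treatment went into mRNA libraries at 1.4 µg per library, per the labels' protocols. The values deposited by the authors are whole counts for each gene, with no normalization. Builds hg38, mm10 and GRCm38 stand together in the submitters' processing notes, and all gene identifiers are human. No source used here gives the aligner, the counter or the strand setting. Of genes with 1 to 20 counts, between 63.9% and 64.9% had an even count. A count of 0 leaves room for 3 expected counts (95% level, counting error only). Libraries of 1 group were not copies of each other, with a chi-square per gene of 79.4 (7A) and 36.5 (DMSO).

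Symbols came from a table of gene names (20148 of 20263 identifiers, the rest from GENCODE 29), and lengths, GC content and coordinates from GENCODE 29 on GRCh38. Length means merged exons. The fit used edgeR 4.0.16 (R 4.3.3) after its filterByExpr step with a minimum count of 10, TMM factors (0.926 and 0.897 for 7A, 1.10 and 1.10 for DMSO), quasi-likelihood F test, Benjamini-Hochberg adjustment over 14026 genes, threshold 0.05. A standard error is the log2 fold change over the square root of F. The fit was tested on simulated data at the common dispersion, in which far fewer genes changed than passed here. It called 12% of 50 genes changed 1.5-fold, 59% of 100 changed 2-fold and 100% of 50 changed 4-fold. Of its 118 calls, 3 were false. Small changes rarely passed there. In the data 48.4% of genes passed, so the simulated shares do not carry over, and POLG2 passed at a log2 fold change of 0.47.

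Alternatives were DESeq2 1.42.0, limma 3.58.1 (voom), RLE, upper-quartile, library-total and nuclear-gene scaling, no filter, 5 CPM in 2 libraries, a replicate block, counts divided by 2, a spline correction for GC and length, and each library left out. All 41 members are named; values per library are given for the 13 mitochondrial genes, for TFAM, POLRMT, TWNK, POLG, LRPPRC and SLIRP, and for the 3 nuclear genes per role with the smallest adjusted p. In the other 6 lists the 2 higher and 2 lower genes with the smallest adjusted p are named. Members and lists were chosen with earlier results of these data known. Mitochondrial rRNAs and tRNAs had no rows in the count table, so they were not analysed here. Python 3.11.15, pandas 2.3.3 and matplotlib 3.10.9 drew tables and plots.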

Additional observations from a re-analysis of the deposited data

How the results depend on the processing

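Across 15 alternatives (for single genes), 544 of the members' values kept direction and call. Of the rest, 46 lost the call, 8 gained it with the same sign and 17 changed sign. All genes called numbered 3864 to 5673 with 1 library left out, against 6795. Mitochondrially encoded genes called lower ranged from 8 to 12 with 1 library left out and their median from -1.48 to -1.23; with library totals it was -1.64. Nuclear genes called higher ranged from 6 to 10 with 1 library left out, and were 6 with library totals, where their median was 0.0297. With 1 library left out that median ranged from 0.17 to 0.42. Nuclear genes called lower numbered 2 to 3 with 1 library left out, and 3 each with DESeq2, the replicate block and the GC and length correction, which ended the calls of MTERF1 and FASTKD3 (the first of these and the block) or MTERF1 and FASTKD1 (the correction).

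The log2 ratio of MT-ND6 to heavy-strand counts with 7A minus that with DMSO was -1.02 to -0.65 with 1 library left out, and the same difference was 0.0694 for MT-ND6 over MT-ND5 and -0.14 for MT-ND6 over MT-CYB. The share of mitochondrial counts differed by -4.17 to -3.04 percentage points with 1 library left out. The replicate block gave 6216 calls, and same-numbered libraries did not deviate together (correlation -0.05 across genes). This gave no sign of pairing by number, but 1 difference per group cannot exclude it.

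Only genes that did not pass changed sign, and the cause was not tested. With upper-quartile scaling TFAM was at -0.0406 and POLG at -0.0148, with library totals TFAM was at -0.19 and POLG at -0.17, and with the 5 CPM filter TFAM was at -0.0129. The GC and length correction gave 0.39 for MTERF4, 0.0578 for MGME1, 0.15 for LRPPRC, 0.19 for FASTKD2 and 0.47 for MTPAP. With 1 library left out MTERF4 ranged from -0.23 to 0.16, MGME1 from -0.28 to 0.30, FASTKD2 from -0.21 to 0.0915 and MTPAP from -0.21 to 0.0887. The 91 other genes tested gave 33 higher and 12 lower, against 20 and 20 with library totals, 43 and 7 after the GC and length correction, and 18 to 28 higher and 3 to 10 lower with 1 library left out. With 2 libraries per group and 1 left out, the lone library is assumed to vary like the other group.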
